A study of Mus musculus with 29 samples.

Results

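Loss of 1 Ezh2 allele in mouse megakaryocyte-erythrocyte progenitors (MEPs) was examined as a single effect across animals with and without the JAK2 V617F mutation. All 10 Ezh2 +/- libraries of the 29 in the study were compared with all 9 libraries whose titles give no Ezh2 genotype. These 9 are called Ezh2 +/+ here because of that absence, and membership came from the titles alone. Without V617F there were 5 Ezh2 +/+ libraries (here called control; SclCre, 2 male and 3 female) and 4 Ezh2 +/- libraries (SclCre; Ezh2 +/-, 2 male and 2 female, replicates 1, 2, 4 and 5). With V617F there were 4 Ezh2 +/+ libraries (SclCre; JAK2V617F, 1 male and 3 female) and 6 Ezh2 +/- libraries (SclCre; JAK2V617F; Ezh2 +/-, all female). For levels only, and to choose genes for a check across backgrounds, the 10 Ezh2 -/- libraries were set beside these: 4 without V617F (SclCre; Ezh2 -/-, 1 male and 3 female) and 6 with it (SclCre; JAK2V617F; Ezh2 -/-, all female). Every library, controls included, carried the Cre transgene named for the Scl gene, written SclCre or ScleCre in the labels. The labels do not say whether the Cre was inducible, how old the mice were, which part of Ezh2 was removed, or in what share of cells. Each library was made from 230000 sorted MEPs. Per the labels the libraries are replicates, without a statement that each was a separate animal, so p-values measure the spread between these libraries.

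EZH2 is the main catalytic subunit of Polycomb repressive complex 2 (PRC2), which methylates lysine 27 of histone H3 and keeps its target genes silent. Its paralog EZH1 can form a second, less active PRC2. MEPs produce the platelet and red cell lineages, and in myeloproliferative neoplasms driven by JAK2 V617F, a constitutively active kinase, loss of EZH2 function is a recurrent additional event. The comparison asks what removal of a single allele does to the MEP transcriptome.

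The 19 libraries held 34.3 to 59.4 M counts (median 45.2 M for Ezh2 +/+ and 42.4 M for Ezh2 +/-), and 15015 to 16356 genes had a count in them. A count of 3 corresponds to 0.0496 to 0.0878 CPM (counts scaled to the library total and its TMM factor), for counting error only. All 16 MEP-defining genes were measured in every group, among them Gata1 at 237 CPM in Ezh2 +/+ and 243 CPM in Ezh2 +/-. Their summed level was 3670 to 4670 CPM in Ezh2 +/+ and 3620 to 5000 CPM in Ezh2 +/- libraries. Summed levels of a list run over all its genes in the files. For 22 granulocyte genes, the sum was 58.3 to 362 CPM in control and 45.8 to 358 CPM in Ezh2 +/- libraries without V617F, and with V617F it was 709 to 1260 CPM in Ezh2 +/+ and 375 to 1900 CPM in Ezh2 +/-. The V617F backgrounds thus did not overlap, and the Ezh2 genotypes overlapped within each. In bulk samples, fewer cells of a type and less RNA per cell cannot be told apart.

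Among 13472 genes tested with edgeR's quasi-likelihood test, 2 passed an adjusted p of 0.05 (0.0148% of genes tested): Ezh2 fell and Pbx3, a homeobox cofactor of HOX proteins, rose. An additive Ezh2 +/- term was fitted beside V617F status and sex, and p-values were adjusted over all genes by the Benjamini-Hochberg method. DESeq2 with the same model called 3 genes (0.0223%), adding Ppm1e, which encodes a metal-dependent serine/threonine phosphatase that acts on calmodulin-dependent kinases. At an unadjusted p of 0.05, 252 genes passed (1.87%), of which 147 were higher (1.09%) and 105 lower (0.779%) in Ezh2 +/-. This share is below the fraction of 0.05 that the cutoff would pass on average if no gene differed. The 252 genes are therefore not read as changed. The median difference over all genes was 0.00188 (log2), and 6894 genes had a positive value against 6578 with a negative one.

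Ezh2 itself was lower in every Ezh2 +/- library than in every Ezh2 +/+ library. Control replicates 1 to 5 measured 314, 319, 301, 312 and 269 CPM, and Ezh2 +/- replicates 1, 2, 4 and 5 measured 197, 190, 188 and 195 CPM. With V617F, the 4 Ezh2 +/+ libraries measured 244, 289, 308 and 313 CPM, and the 6 Ezh2 +/- libraries measured 154, 205, 190, 189, 148 and 160 CPM. The 2 genotypes did not overlap in either background, which was true of 1 gene of 13472 (0.00742%). Pooled means were 297 ± 24.9 CPM (SD, n = 9) and 182 ± 19.9 CPM (SD, n = 10), a 0.623-fold level or a log2 difference of -0.68 ± 0.0587 (SE; 95% interval -0.81 to -0.56; adjusted p = 1.03e-05, edgeR quasi-likelihood). Residual Ezh2 RNA was 63.5% of the Ezh2 +/+ mean without V617F and 60.4% with it. These libraries therefore followed their Ezh2 grouping, although the counts do not separate transcripts with and without the deleted part. Jak2, the gene of the covariate, had 219 ± 14.4 CPM (SD, n = 9) in Ezh2 +/+ and 220 ± 22.7 CPM (SD, n = 10) in Ezh2 +/-, a log2 difference of -0.03 ± 0.0421 (SE).

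Set beside the Ezh2 -/- libraries, the Ezh2 level of 1-allele loss lay close to the middle. Ezh2 -/- libraries held 73.4 ± 5.89 CPM (SD, n = 4) without V617F and 55 ± 3.1 CPM (SD, n = 6) with it. The midpoints between these and the Ezh2 +/+ means were 188 and 172 CPM, and the Ezh2 +/- means were 192 and 174 CPM. Expressed as the share of the way from the Ezh2 +/+ to the Ezh2 -/- mean, the Ezh2 +/- libraries averaged 48.1% (46.1 to 50% in single libraries) and 49% (35.8 to 60.2%). Both steps of this scale use the same Ezh2 +/+ libraries, so the positions are a description.

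**Figure D1:**
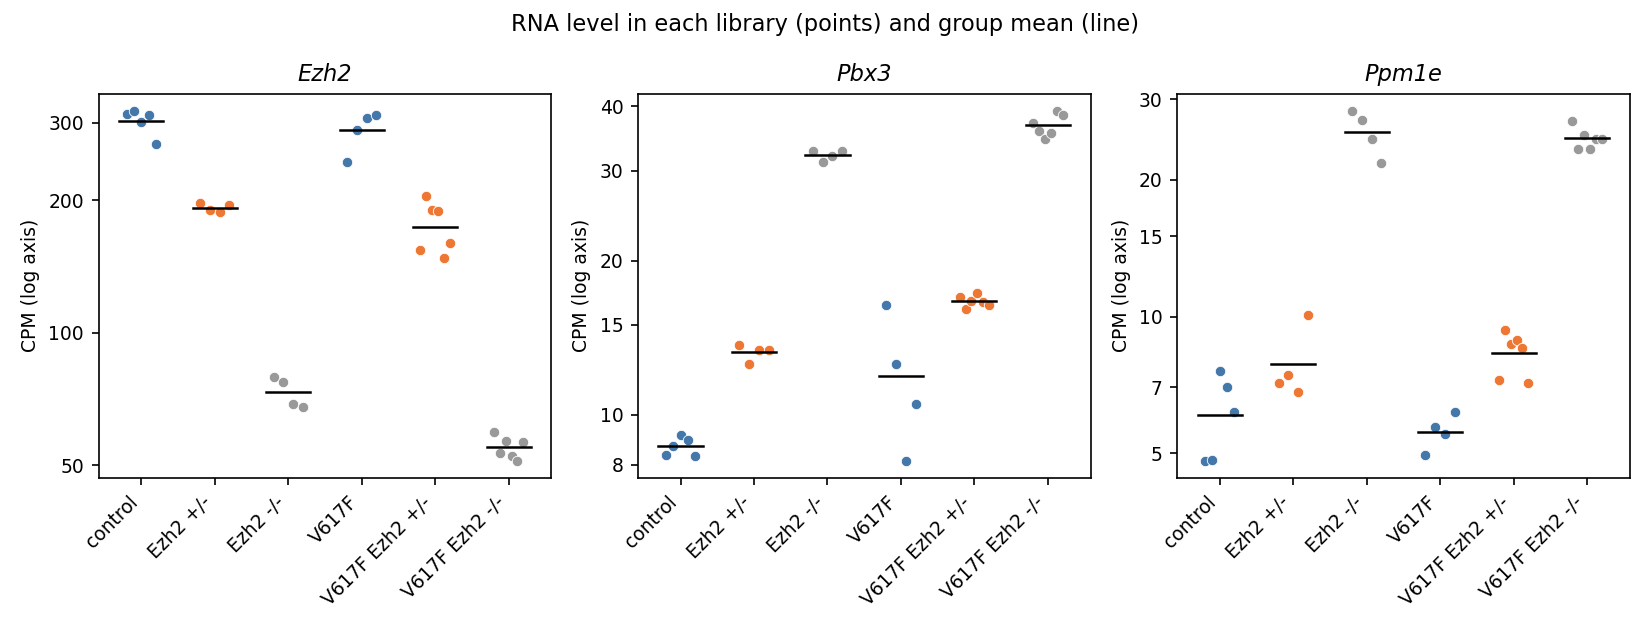
CPM (vertical log axes) of Ezh2, Pbx3 and Ppm1e in single libraries (points), by Ezh2 genotype and V617F status, with group means (lines). Ezh2 +/- libraries average 182 CPM for Ezh2, between the other genotypes, while for Pbx3 (15.3 CPM) and Ppm1e (8.14 CPM) they lie nearer to Ezh2 +/+ than to Ezh2 -/-.

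Of 6 core PRC2 genes only Ezh2 passed the test. The scaffold gene Eed (105.5 and 102.7 CPM), the zinc finger subunit gene Suz12 (369.1 and 363.5 CPM) and the histone-binding subunit genes Rbbp4 (460 and 475 CPM) and Rbbp7 (431 and 427 CPM) had log2 differences between -0.02 and 0.04 with SEs of 0.0335 to 0.0621. Ezh1, the paralog, had 33.1 CPM in Ezh2 +/+ and 33.7 CPM in Ezh2 +/- (log2 difference 0.05 ± 0.0704, SE; 95% interval -0.10 to 0.20). None of the 6 accessory subunit genes passed. Among these the lowest p belonged to Mtf2, a subunit that recruits PRC2 to CpG islands, with 148 and 140 CPM and a log2 difference of -0.09 ± 0.0411 (SE; 95% interval -0.17 to 0.00046).

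The balance of the catalytic subunit genes was followed on a scale that allows levels of different genes to be compared. Per kilobase of gene length, Ezh2 had 111 CPM in Ezh2 +/+ and 68.1 CPM in Ezh2 +/-, and Ezh1 had 7.89 and 8.03 CPM. The ratio of Ezh2 to Ezh1 on this scale was 11.4 to 16.8 in single Ezh2 +/+ libraries (median 14.4). In Ezh2 +/- libraries it was 6.13 to 11.5 (median 8.99). The ranges overlapped at their edges across backgrounds only, between control replicate 5 (11.4) and V617F Ezh2 +/- replicate 2 (11.5). Within each background the 2 genotypes did not overlap. In Ezh2 -/- libraries the ratio was 2.14 to 3.88 (median 2.6). Ezh2 was above Ezh1 on this scale in every library, the Ezh2 -/- libraries included. These are RNA levels, and the counts do not separate Ezh2 transcripts with and without the deleted part.

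Pbx3 rose to a 1.46-fold level in Ezh2 +/- MEPs (95% interval 1.28 to 1.66). Control replicates 1 to 5 measured 8.36, 8.69, 9.13, 8.92 and 8.3 CPM, and Ezh2 +/- replicates 1, 2, 4 and 5 measured 13.7, 12.6, 13.4 and 13.4 CPM, without overlap. With V617F, the Ezh2 +/+ libraries spread over 16.4, 12.6, 8.14 and 10.5 CPM, whereas the 6 Ezh2 +/- libraries held 17, 16.1, 16.7, 17.3, 16.6 and 16.4 CPM. Overlap in this background came from V617F replicate 1 alone. The share of all genes without overlap in a single background was not counted. The pooled means were 10.1 ± 2.74 CPM (SD, n = 9) and 15.3 ± 1.81 CPM (SD, n = 10), with a log2 difference of 0.54 ± 0.0878 (SE; 95% interval 0.36 to 0.73; adjusted p = 0.0485, edgeR quasi-likelihood).

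V617F replicate 1 also had the highest summed level of 26 stem and multipotent progenitor genes (1820 CPM) and of the 31 Hox genes in the files (63.8 CPM) among the 19 libraries, and the highest megakaryocyte sum of the Ezh2 +/+ libraries (3600 CPM). Without that library the Pbx3 difference was 0.65 (log2, adjusted p = 7.42e-05, edgeR quasi-likelihood). In the 4 Ezh2 +/+ libraries with V617F, megakaryocyte sums of 3600, 2050, 1370 and 2150 CPM stood beside Pbx3 levels of 16.4, 12.6, 8.14 and 10.5 CPM. The highest and the lowest library were the same for both, and the libraries between them stood in reverse order. Among controls, replicate 5 had the highest megakaryocyte sum (2000 CPM) and the lowest Pbx3 level (8.3 CPM). Control Pbx3 levels spanned only 8.3 to 9.13 CPM. Among the 6 Ezh2 +/- libraries with V617F, Pbx3 was between 16.1 and 17.3 CPM while the megakaryocyte sum ran from 1090 to 4020 CPM. With scores of the megakaryocyte, granulocyte and T and NK cell lists as covariates, the Pbx3 difference was 0.55 (adjusted p = 0.0518, edgeR quasi-likelihood). Beyond that fit, whether megakaryocyte content bore on Pbx3 was not tested. The call was marginal: it was kept in 8 of 30 alternative settings, although the value was positive in all 30 (0.43 to 0.65). Leaving out 1 library ended it in 17 of 19 cases, and in female libraries alone the value was 0.43 (adjusted p = 1, edgeR quasi-likelihood).

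In Ezh2 -/- MEPs Pbx3 reached 32.2 ± 0.739 CPM (SD, n = 4) without V617F and 36.8 ± 1.82 CPM (SD, n = 6) with it. The Ezh2 +/- libraries thus lay 19.5% (16.6 to 21.5%) and 19.2% (17.1 to 21.6%) of the way from Ezh2 +/+ to Ezh2 -/-, against 48.1% and 49% for Ezh2 RNA, again with shared Ezh2 +/+ libraries. None of the other 9 tested TALE homeobox genes, the family of PBX and MEIS partners of HOX proteins, was called. Pbx2 had 54.8 and 54.4 CPM in the 2 genotypes (log2 difference 0.0048 ± 0.0391, SE) and Meis1 38.2 and 45.8 CPM (-0.03 ± 0.296). The SE of Meis1 was several times that of Pbx2, so smaller changes in it were not detectable.

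Ppm1e had the next lowest p. It measured 4.82, 4.83, 7.59, 6.99 and 6.16 CPM in control replicates 1 to 5 and 7.14, 7.42, 6.81 and 10.1 CPM in Ezh2 +/- replicates 1, 2, 4 and 5, and these ranges overlapped. With V617F the values were 4.95, 5.71, 5.51 and 6.18 CPM in Ezh2 +/+ and 7.26, 9.33, 8.71, 8.88, 8.52 and 7.15 CPM in Ezh2 +/-, without overlap. Here too, the share of all genes without overlap in that background was not counted. The log2 difference was 0.45 ± 0.0858 (SE; 95% interval 0.27 to 0.63; adjusted p = 0.218, edgeR quasi-likelihood), so the gene was not called, while DESeq2 gave an adjusted p of 0.0012. A fit to all 29 libraries gave 0.00576 (edgeR quasi-likelihood), and none of the 19 fits that left out 1 library called it. Ppm1e stood at 25.4 ± 2.87 CPM (SD, n = 4) and 24.6 ± 1.28 CPM (SD, n = 6) in Ezh2 -/- MEPs without and with V617F, and the Ezh2 +/- libraries lay 9.3% (3.78 to 21%) and 14.3% (8.21 to 19.7%) of the way. None of the other 14 tested phosphatase genes of its family passed.

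The other 4 uncalled genes of lowest p on the higher side were Gphn, Hif1a, Ctbp2 and Rasal2. Gphn, which encodes the scaffold protein gephyrin, measured 32.6 ± 2.75 CPM in Ezh2 +/+ (SD, n = 9) and 38.1 ± 2.39 CPM in Ezh2 +/- (SD, n = 10), a log2 difference of 0.23 ± 0.0483 (SE, adjusted p = 0.628, edgeR quasi-likelihood). The hypoxia-response factor gene Hif1a had 57.9 and 66.5 CPM (0.17 ± 0.0422), the transcriptional corepressor gene Ctbp2 39.3 and 44.2 CPM (0.13 ± 0.0344), and Rasal2, which encodes a Ras GTPase-activating protein, 11.2 and 13.6 CPM (0.25 ± 0.069). All 4 stood higher still in Ezh2 -/- libraries, whose means without and with V617F were 56.1 and 51.6 CPM for Gphn, 94.9 and 101 CPM for Hif1a, 55.9 and 54.9 CPM for Ctbp2, and 25.3 and 28 CPM for Rasal2. These means are set against the same Ezh2 +/+ libraries. In each of the 4, single Ezh2 +/- libraries overlapped with Ezh2 +/+ libraries.

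On the lower side, the 5 uncalled genes with the lowest p were Ccdc116 (5.45 and 4.27 CPM in Ezh2 +/+ and Ezh2 +/-; log2 difference -0.33 ± 0.0956, SE), C1s2, Ppp1r32, Snhg7 and Fam83h. Snhg7, a small nucleolar RNA host gene, measured 9.35 and 8.25 CPM (-0.19 ± 0.0676). C1s2, a complement protease gene with a near-identical neighbour, lay at 0.209 and 0.0938 CPM. Ppp1r32 lay at 0.343 and 0.211 CPM, and Fam83h at 0.397 and 0.221 CPM. These levels were within about 10-fold of 3 counts in a library (0.0496 to 0.0878 CPM). In Ezh2 +/-, C1s2 lay at about that level, with 15 counts in all over the 6 libraries with V617F. None passed the threshold. Ezh2 -/- means without and with V617F were 3.49 and 3.14 CPM for Ccdc116, and 0.145 and 0.0878 CPM for C1s2. They were 0.339 and 0.173 CPM for Ppp1r32, 7.36 and 9.01 CPM for Snhg7, and 0.298 and 0.644 CPM for Fam83h. Only Ccdc116 stood lower in Ezh2 -/- than in Ezh2 +/- in both backgrounds. Fam83h with V617F stood above its Ezh2 +/+ mean (0.381 CPM).

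**Figure D2:**
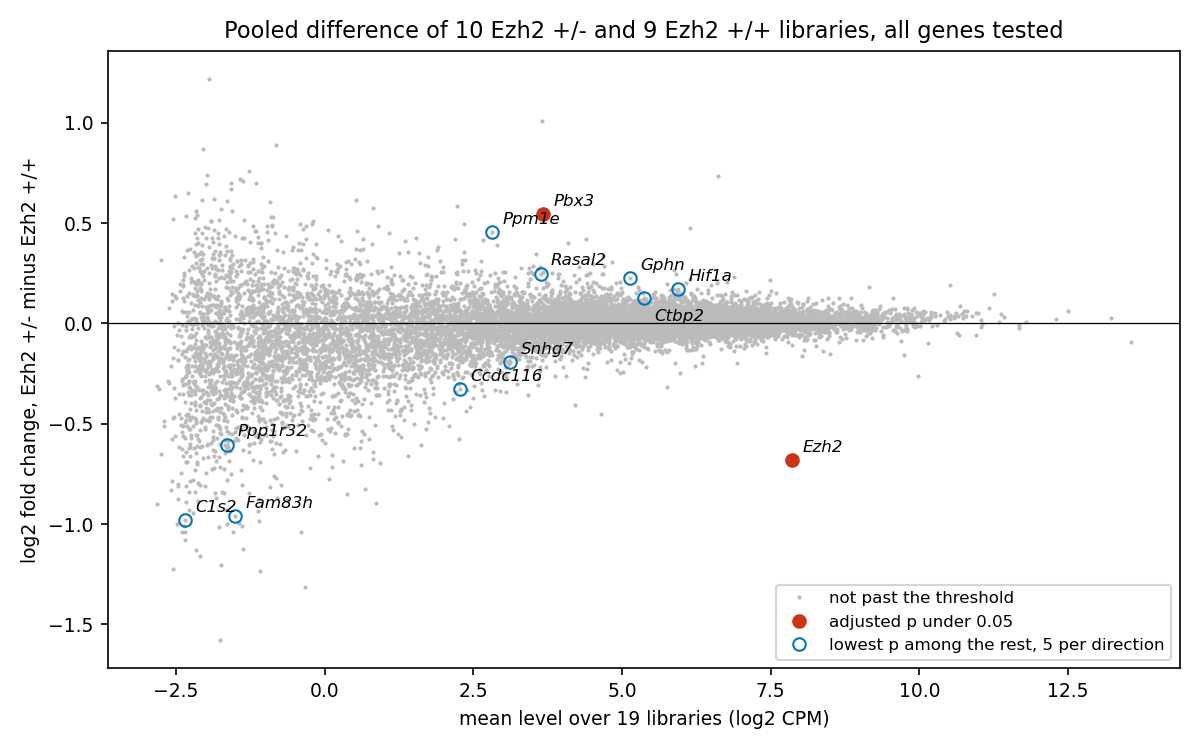
Each point is 1 of the 13472 genes tested, with mean log2 CPM on the horizontal axis and the log2 difference of Ezh2 +/- from Ezh2 +/+ on the vertical axis. Ezh2 (-0.68) and Pbx3 (0.54) are the called genes, and most other genes lie close to 0, with a wider spread at low expression.

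The promoter sequence was read for the uncalled genes nearest the threshold on the higher side, as CG-rich promoters are the usual sites of PRC2 recruitment in mammals. Of these, Ppm1e and Gphn had the most CG dinucleotides in the 250 bases before the RefSeq start (assembly GRCm38.p6). Ppm1e (chr11:87358995-87359244, minus strand) held 32, and Gphn (chr12:78226405-78226654, plus strand) held 34. Each run reads 5′ to 3′ on the gene's strand, up to the base before the start, with each CG in capitals.
Ppm1e: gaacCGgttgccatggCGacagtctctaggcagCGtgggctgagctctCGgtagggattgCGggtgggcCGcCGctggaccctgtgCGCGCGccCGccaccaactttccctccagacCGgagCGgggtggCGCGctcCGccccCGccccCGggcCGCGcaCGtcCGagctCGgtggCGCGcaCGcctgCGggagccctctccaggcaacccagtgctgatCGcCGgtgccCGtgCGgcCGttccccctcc
Gphn: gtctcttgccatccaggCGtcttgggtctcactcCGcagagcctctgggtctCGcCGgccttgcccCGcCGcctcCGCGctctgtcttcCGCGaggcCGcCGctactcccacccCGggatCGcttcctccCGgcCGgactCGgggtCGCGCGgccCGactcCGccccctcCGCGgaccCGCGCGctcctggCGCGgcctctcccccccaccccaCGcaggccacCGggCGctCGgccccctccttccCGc
Over 10605 tested genes with a window in the table, the median was 16 CG (quartiles 9 and 22), 98.8% held at least 1, 8.13% held as many as Ppm1e or more, and 6.12% as many as Gphn or more. Rasal2 held 23, Hif1a 14 and Ctbp2 2, so the 5 genes did not share CG density. Of the uncalled genes of lowest p on the lower side, Ccdc116 held 17, Snhg7 16, Ppp1r32 3 and C1s2 0. Ctbp2 had 2 windows and Ccdc116 had 3, and each value is for a single window. No promoter window was available for the called gene Pbx3, so its sequence was not read. No measurement of PRC2 binding or of histone methylation was analysed here, and a count of CG is a description of the sequence only.

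Genes that oppose or extend Polycomb repression showed no called member. For 21 PRC1 genes, whose complex binds the PRC2 mark and ubiquitinates histone H2A, 12 values were positive and the median difference was 0.03 (log2). Scmh1, a PRC1-associated gene, had 29.6 and 34.2 CPM (0.18 ± 0.0639, SE) and Pcgf5 29.8 and 32 CPM (0.09 ± 0.0402), both under an unadjusted p of 0.05. Of 19 genes of opposing histone marks and DNA methylation, 2 had an unadjusted p under 0.05, and the lowest p belonged to Nsd2, a histone H3 lysine 36 methyltransferase gene (0.11). These shares are read against the 1.87% of all genes, and on 21 and 19 genes they rest on 2 members each.

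Typical PRC2 targets were not called. Among 14 tested Hox genes of 31 in the files, 12 values were negative with a median of -0.18 (log2), and Hoxa9 had 13 and 12.3 CPM (-0.18 ± 0.112, SE). This lean rested on 1 library: without V617F replicate 1 the median was 0.0093, with 7 of 14 values positive. The summed Hox level was 19.8 to 63.8 CPM in Ezh2 +/+ and 16.1 to 55.6 CPM in Ezh2 +/-, so the ranges overlapped almost fully. Only 5 of 43 developmental regulator genes in the files were expressed enough to be tested (median -0.26), and 12 of 23 imprinted genes (median -0.11). In the latter, Peg10, an imprinted retrotransposon-derived gene, had 4.14 and 5.94 CPM (0.36 ± 0.148, SE, unadjusted p = 0.0274 in edgeR's quasi-likelihood test).

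Some genes that were silent in Ezh2 +/+ and present in Ezh2 -/- libraries stayed near silence in Ezh2 +/-. Lin28b, a fetal-type RNA-binding protein gene that blocks let-7 maturation, had 35 counts in all 9 Ezh2 +/+ libraries, 39 in all 10 Ezh2 +/- libraries and 10512 in the 10 Ezh2 -/- libraries. No Ezh2 +/- library exceeded 0.166 CPM of Lin28b, against 8.51 to 39.5 CPM in Ezh2 -/- libraries. Cdkn2a, the gene of the cell cycle inhibitor p16 and of ARF, had 48, 12 and 1863 counts in the same order, and 40 of the 48 came from V617F replicate 1 (1.04 CPM). The highest Ezh2 +/- library had 0.074 CPM of Cdkn2a, while Ezh2 -/- libraries had 1.35 to 8.33 CPM. Igf2bp3, another fetal-type RNA-binding protein gene, had 5, 6 and 520 counts. Cdkn2b, the gene of p15, was low but not silent, with 50, 71 and 380 counts. Its medians were 0.113, 0.169 and 0.772 CPM in the same order. These 4 genes were too low for the filter and were not tested in Ezh2 +/-. Of the tested CDK inhibitor genes, Cdkn2c, the gene of p18, had 19.9 and 22.8 CPM in Ezh2 +/+ and Ezh2 +/- (0.20 ± 0.0644, SE, unadjusted p = 0.0062, not called).

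Genes that differed in Ezh2 -/- were then followed in Ezh2 +/- of the other V617F background, so that no library was shared. Ezh2 itself was left out of these sets. The 1732 genes that were higher in Ezh2 -/- without V617F included 1616 tested in Ezh2 +/- with V617F, where their median difference was 0.0021 (log2), with 50.4% of values positive. Over all 12946 genes tested there the median was -0.00605 and 48% were positive. In the other direction, 1333 of 1522 genes higher in Ezh2 -/- with V617F were tested without V617F, with a median of -0.0151 and 45.5% positive, against 0.00327 and 51.4% for all 13017 genes. None of these genes was called in Ezh2 +/- by edgeR's quasi-likelihood test (0 of 1616 and 0 of 1333), against 2 of all 12946 genes with V617F (0.0154%) and 0 of 13017 without it. At an unadjusted p of 0.05 there were 65 of the 1616 (4.02%, against 4.36% of all genes) and 72 of the 1333 (5.4%, against 3.41%), and other tools were not run on these fits. Genes at least 4-fold higher in Ezh2 -/- had medians of -0.17 (160 tested of 239) and -0.06 (126 tested of 263). Negative medians were not particular to them: genes at least 4-fold lower had -0.185 (55 tested of 92) and -0.0412 (2 tested of 5). For genes lower in Ezh2 -/- with V617F, 71.3% of 1070 values were positive without V617F (median 0.04), and for those chosen without V617F 53% of 1494 were positive with it (median 0.01).

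**Figure D3:**
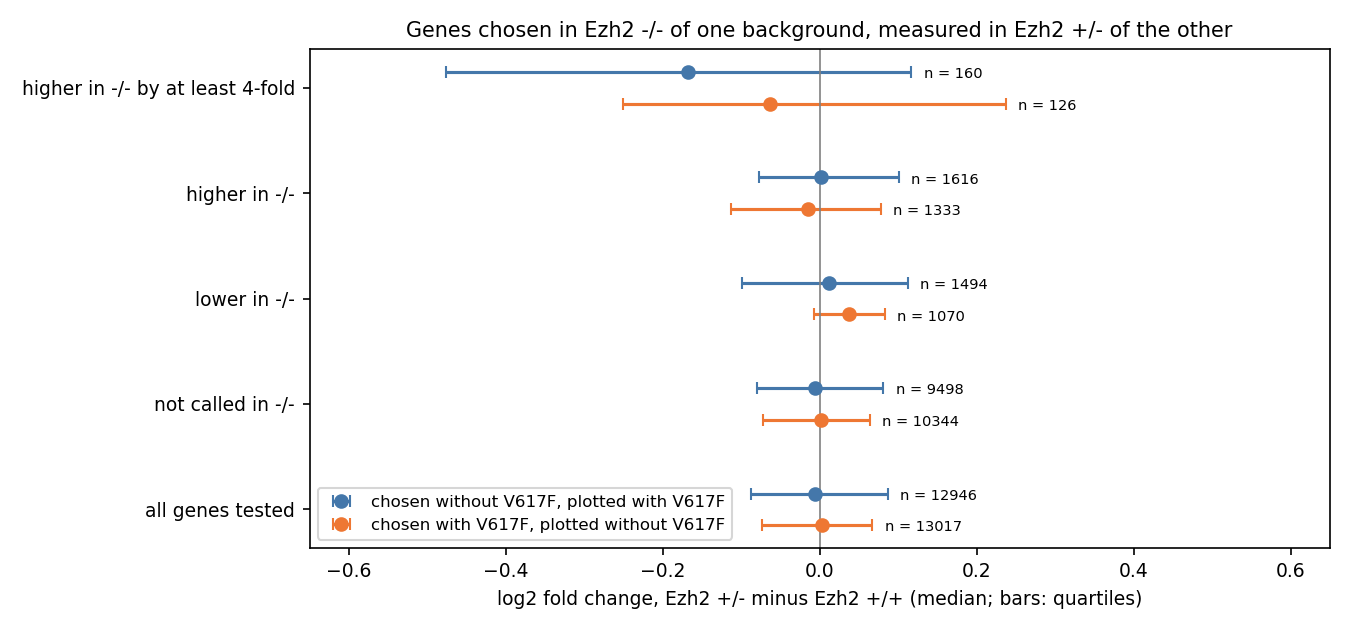
Median log2 difference of Ezh2 +/- from Ezh2 +/+ (points; lines span the quartiles) for genes chosen in Ezh2 -/- of the other V617F background. The medians of genes higher in Ezh2 -/- are 0.0021 and -0.0151, next to -0.00605 and 0.00327 for all genes tested.

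Of the 27 gene lists examined, 25 had no called member by edgeR's quasi-likelihood test, and 24 had none under any of the 30 alternatives, DESeq2 and limma included. The exceptions were the lists that hold Ezh2, Pbx3 and, under 2 settings, Ppm1e. The lists describe MEP identity and its lineages, other blood cells, signalling and growth.

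MEP identity genes had positive values for 13 of 16, with a median of 0.07 (log2) and no unadjusted p under 0.05. Zfpm1, a GATA1 cofactor gene, had 390 and 422 CPM (0.13 ± 0.0697, SE) and Gfi1b 173 and 184 CPM (0.14 ± 0.089). The erythroid transcription factor gene Klf1 had 242 and 253 CPM (0.11 ± 0.127). Among 31 erythroid genes the median was 0.01, and among 36 megakaryocyte and platelet genes it was 0.06, with 22 positive values. Without V617F replicate 1 the megakaryocyte median was 0.21, and without V617F Ezh2 +/- replicate 5 it was -0.02. Summed megakaryocyte levels were 1140 to 3600 CPM in Ezh2 +/+ and 1090 to 4020 CPM in Ezh2 +/-, ranges that overlapped almost fully. None of the 31 erythroid or 36 megakaryocyte genes had an unadjusted p under 0.05.

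Markers of other blood cells leaned in different directions without a called member. Among 25 T and NK cell genes 21 values were negative (median -0.23), and sums were 47 to 320 CPM in Ezh2 +/+ and 35 to 266 CPM in Ezh2 +/-. The highest of these, 320 CPM, was in control replicate 5, which also had the highest monocyte, B cell and interferon-stimulated sums. Among 11 mast cell and basophil genes 10 values were positive (median 0.30), most of them at a few CPM, as for Ms4a2 (1.16 and 1.47 CPM; 0.30 ± 0.194, SE). Granulocyte genes had a median of -0.14 and 17 of 22 negative values. That median changed sign without control replicate 5 (0.0202) or Ezh2 +/- replicate 4 (0.00748), without the sex term (0.0441) and in female libraries alone (0.143), and it was -0.597 with limma and library weights. The median was -0.06 for monocyte, macrophage and dendritic genes, -0.03 for B cell genes, -0.03 for stem and multipotent progenitor genes and 0.07 for stromal and endothelial genes. Leaving out 1 library gave medians of either sign for each of these 4 lists, for example 0.172 for stem genes without V617F replicate 1 and 0.0579 for monocyte genes without control replicate 5. None of these genes had an unadjusted p under 0.05 in edgeR's quasi-likelihood test, and their part in the 2 calls was not tested beyond the fit with lineage scores given for Pbx3.

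For signalling and growth lists, the median was -0.02 for 23 JAK-STAT5 target genes, -0.01 for 37 interferon-stimulated genes, -0.01 for 23 p53 target genes and -0.11 for 26 immediate early genes (0.00689 without V617F replicate 1). Cell cycle genes had 35 of 40 positive values at a median of 0.03, with E2f8, an atypical E2F repressor gene, at the lowest p (0.13, log2). Of 58 cytosolic ribosomal protein genes 57 had positive values (98.3%, against 51.2% of all genes), the highest of them 0.07 (Rps20), and none had an unadjusted p under 0.05. Their summed level was 52400 to 64100 CPM in Ezh2 +/+ and 56300 to 63600 CPM in Ezh2 +/-. These genes vary together between libraries, so their number is not a number of independent observations.

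**Figure D4:**
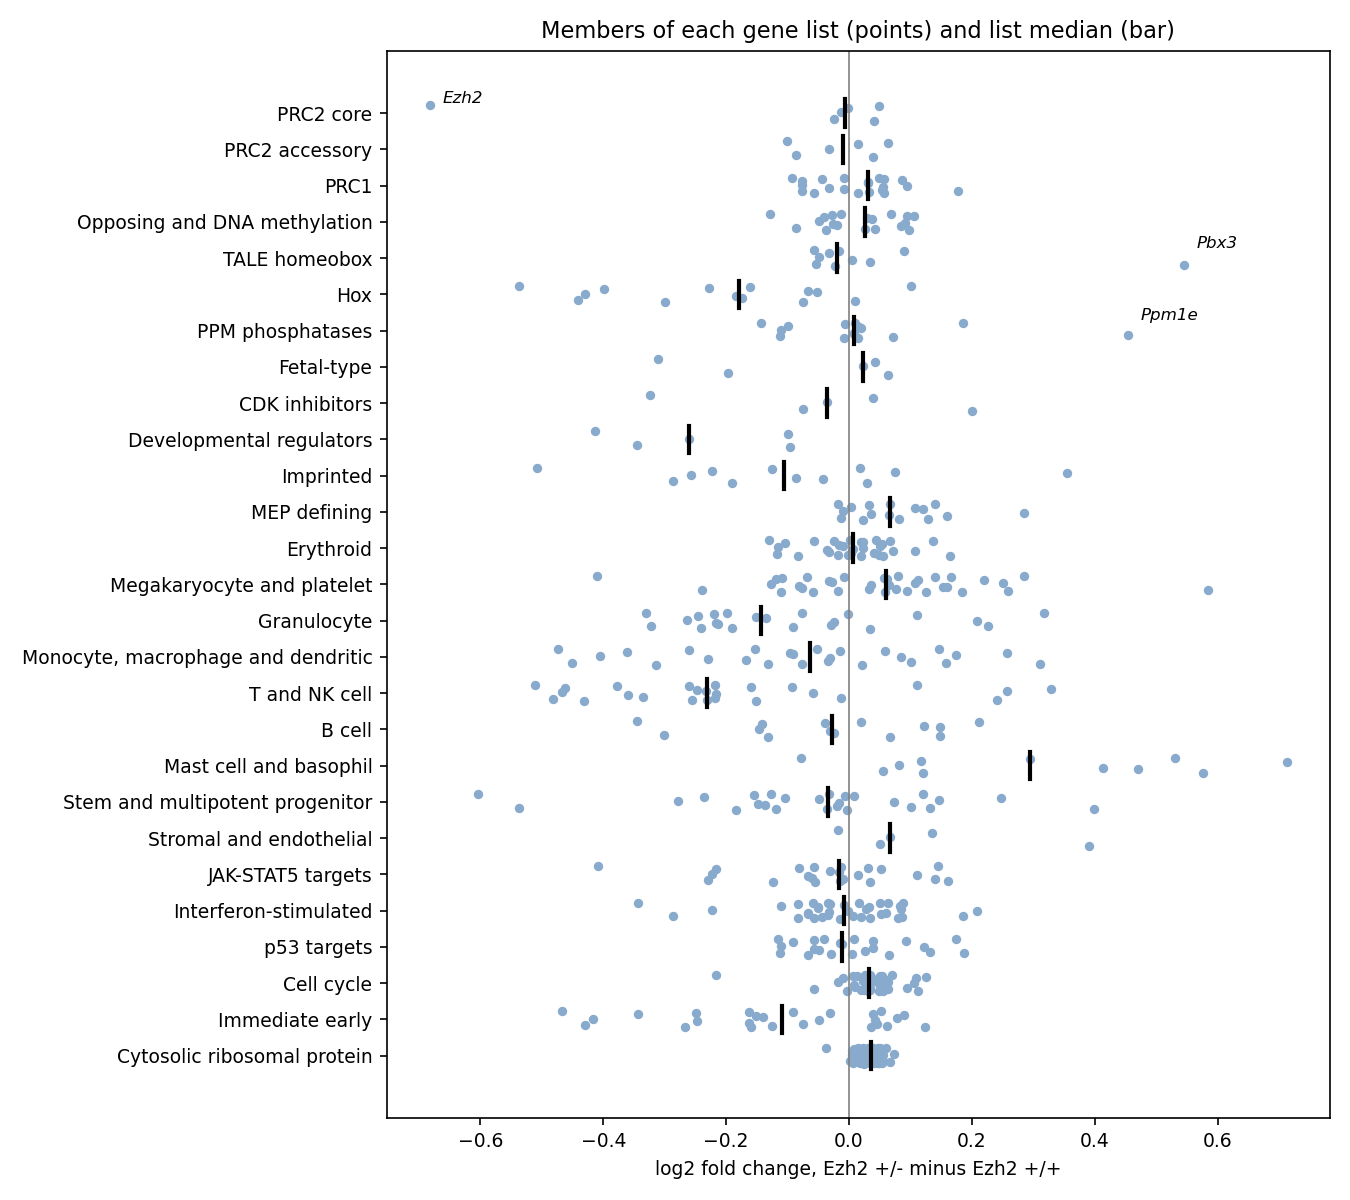
Log2 differences of Ezh2 +/- from Ezh2 +/+ (horizontal axis) for the tested members of each gene list (points), with list medians (bars). Ezh2 (-0.68) and Pbx3 (0.54) are the only called members of the 27 lists.

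Whether 1-allele loss acted alike in both backgrounds was asked with a product term of Ezh2 +/- and V617F. It was called for no gene by edgeR's quasi-likelihood test (0 of 13472), with 874 genes at an unadjusted p of 0.05 (6.49%), while DESeq2 called 58 (0.431%) and limma with library weights 109. For Ezh2 the difference between backgrounds was -0.05 ± 0.122 (log2, SE), for Pbx3 -0.17 ± 0.179 and for Ppm1e 0.07 ± 0.18, with adjusted p values of 0.992, 0.972 and 0.992 in edgeR's quasi-likelihood test. Since all 6 Ezh2 +/- libraries with V617F were female, sex within that group could not be compared.

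The precision of the comparison sets what it could have shown. The biological coefficient of variation was 19.6%, and the SE of a log2 difference had a median of 0.0782 over all genes. For 12389 genes (92%) the 95% interval lay within a 2-fold change in either direction, and for 9990 (74.2%) within 0.5 on the log2 scale. Of 9895 genes with a mean log2 CPM of 2 or more, 9828 (99.3%) had an interval within 2-fold. Both called genes differed by less than 2-fold (log2 -0.68 for Ezh2 and 0.54 for Pbx3). Differences that were small beside their SE, and those of genes with few counts, could have been missed at this depth and spread.

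**Figure D5:**
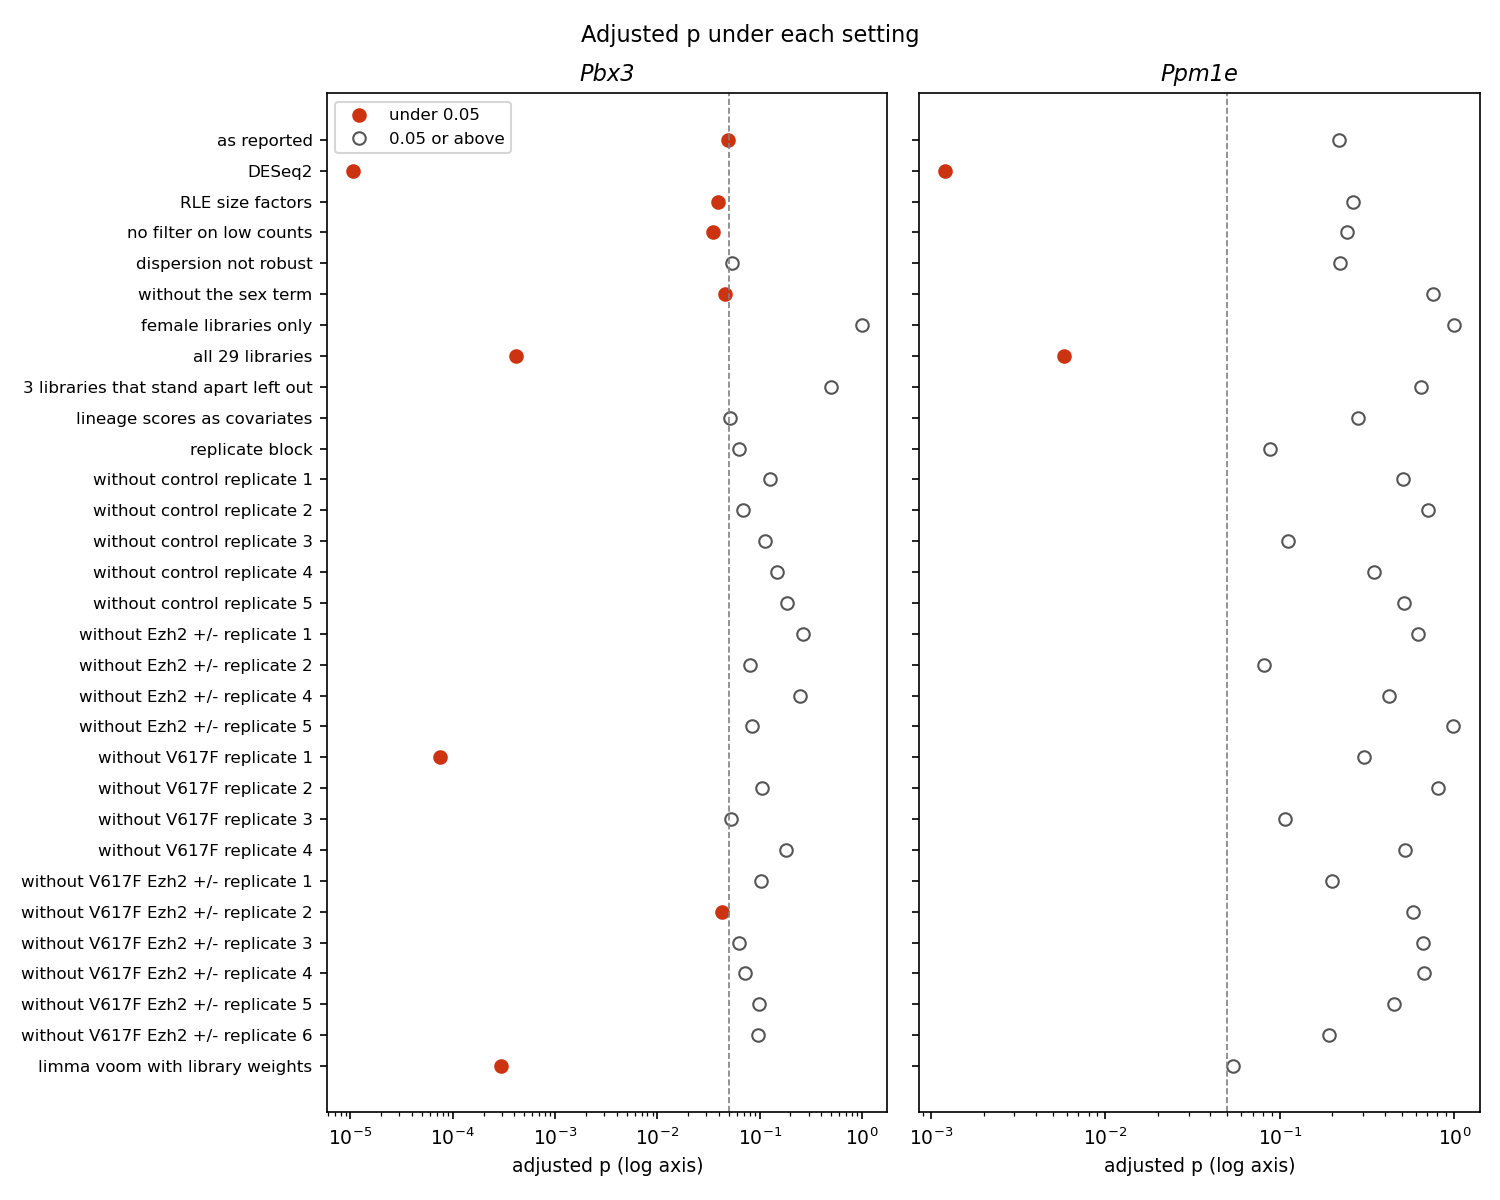
Adjusted p (horizontal log axis) of Pbx3 and Ppm1e as reported and under each of 30 alternative settings (rows), with filled points under 0.05 and a dashed line at 0.05. Pbx3 lies just under the line as reported (0.0485) and under it in 8 of 30 alternatives, and Ppm1e in 2 of 30.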

How the data were processed

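RNA from sorted mouse MEPs was sequenced in 29 libraries, of which 19 entered the tests. Per the submitters' processing notes, the authors aligned reads with STAR to mouse build mm9. The files deposited by the authors give raw counts as whole numbers for each Entrez gene identifier. The counting program, strand setting and annotation were not given in the sources used here. A gene length column deposited beside the counts was used for levels per kilobase. A RefSeq gene table (GRCm38.p6) named 18772 of 18834 identifiers. The other 62 held 0.884 to 2.68% of counts and stayed in the fit. Among tested genes, 14 had counts identical to another gene's and formed 7 sets.

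Groups came from the sample titles, and libraries without an Ezh2 genotype in the title were taken as Ezh2 +/+. Genes were filtered with filterByExpr (minimum count 10, total 15) and scaled by TMM in edgeR 4.0.16 under R 4.3.3. The quasi-likelihood test (robust dispersion, two-sided) used an additive model of Ezh2 +/-, V617F and sex with Benjamini-Hochberg adjustment over 13472 genes and a threshold of 0.05. The script was tested on simulated data. DESeq2 1.42.0 and limma 3.58.1 were alternatives. Levels are CPM with TMM factors of all 29 libraries. No pair of replicates among the 19 libraries agreed within sampling noise. The closest pair was V617F Ezh2 +/- replicates 3 and 4 (chi-square per degree of freedom 4.71). The next was control replicates 1 and 2 (11.3). Whether the closest pair shared an origin is not in the labels.

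The members and gene lists were chosen with earlier results of these data known. Named genes are Ezh2, Pbx3, Ppm1e, Jak2, all called genes, the 5 uncalled genes of lowest p in each direction, and for each list its called members or that of lowest p. Other members are named for their role, after their values were seen. The Ezh2 -/- libraries served for levels and for the comparison across backgrounds.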

Additional observations from a re-analysis of the deposited data

Results flagged for a closer look

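Single libraries stood apart from their group in 5 of the 152 gene and group pairs examined. Chance alone marks about 1 in 20 groups by this measure, in which the gap to the nearest library is set against the whole range. Ccdc116 measured 6.6 CPM in V617F replicate 3 against 5.47 to 5.61 CPM in the other libraries of that group. Snhg7 measured 9.73 CPM in V617F Ezh2 +/- replicate 1 against 7.87 to 8.43 CPM elsewhere in the group.

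Ezh2 +/- replicate 5 stood apart for a pair of genes. Igf2bp2, a fetal-type RNA-binding protein gene, had 4.02 CPM there against 2.13 to 2.44 CPM, and Ddit3, a stress-response transcription factor gene, had 25.9 CPM against 18.9 to 19.2 CPM. Pdgfrb, a stromal receptor gene, had 15.2 CPM in control replicate 5 against 3.77 to 6.44 CPM in the other controls. None of the 5 genes was called in the pooled comparison, and neither Ezh2 nor Pbx3 was marked in any group.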

How the results depend on the processing

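Ezh2 was lower and called in all 30 alternatives to the pooled fit (log2 -0.71 to -0.65, highest adjusted p 0.046 in female libraries alone, edgeR quasi-likelihood). The number of called genes was 2 as reported. It was 1 with a dispersion that was not robust, with female libraries only, with 3 libraries left out at once (control replicate 5, and replicates 2 and 5 of Ezh2 +/-), and with lineage scores as covariates. It was 3 with DESeq2 and with all 29 libraries, and 1 to 2 when single libraries were left out. The labels do not say what a shared replicate number stands for. Same-numbered libraries correlated at -0.441 to 0.795, and 6 of 8 pairs lay over 0.1. Of 8 Ezh2 +/- libraries, 2 correlated best with their own number. The value of 0.795 belonged to control replicate 5 and Ezh2 +/- replicate 5. These libraries also had the highest shares of counts in identifiers without a gene name (2.68 and 2.58%). Whether some numbers mark a shared origin was not tested. With the replicate number as a block, 1 gene was called, and Pbx3 had an adjusted p of 0.0624.

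Without each library in turn, Pbx3 had adjusted p values from 7.42e-05 to 0.263, and the call was kept without V617F replicate 1 or without V617F Ezh2 +/- replicate 2 (0.0427). With limma and library weights, an alternative chosen after seeing the data, it was 0.000295. The difference between backgrounds was called for 58 genes by DESeq2, 109 by limma with library weights, and 0 to 4 when single libraries were left out, with the 4 in the fit without V617F replicate 3 (among them, named after their values were seen, Tmem94, Sipa1l3 and Cmip). The cause was not tested. Medians of the ribosomal (0.00271 to 0.0525), cell cycle, MEP, and mast cell and basophil lists were positive in all 30 alternatives, and those of the T and NK cell and imprinted lists negative. Depth limits genes near 3 counts a library, and the 9 against 10 libraries limit the rest.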
